A study of Mus musculus with 6 samples.

Results

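Serpins are protease inhibitors that trap their target in an irreversible complex. The 8 genes described here belong to 2 groups of this family: 4 Serpina3 copies that are linked to interferon and inflammation (Serpina3f, Serpina3g, Serpina3i and Serpina3n), and 4 intracellular clade B genes related to the inhibitors of granzymes (Serpinb6a, Serpinb6b, Serpinb9 and Serpinb9b). They were taken by gene name from a table of 78298 genes, and each of the 8 names matched 1 row. RNA was sequenced from RENCA cells, an established mouse renal adenocarcinoma line. The cells had been transduced either with a lentivirus that carried mouse Aqp1 under the ubiquitin C promoter (oe-AQP1, 3 samples) or with the empty vector (oe-NC, 3 samples). Both groups thus carried the viral backbone and a puromycin resistance cassette, and both were kept in 2 μg/mL puromycin for 14 days; untransduced cells were not analysed here. All samples carried the same batch label. The labels call the 3 samples of a group biological replicates but do not say whether they came from separate transductions, so p-values measure the spread between these samples only. In such bulk samples, fewer cells that express a gene and less RNA per cell cannot be told apart.

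Granzymes are the serine proteases that cytotoxic T cells and natural killer cells deliver into a target cell through perforin pores. Serpinb9 inhibits granzyme B and can protect both the killer cell and a tumor cell from it, while Serpinb6a is the mouse counterpart of a cytosolic inhibitor of cathepsin G. Serpina3g restrains lysosomal cathepsins in activated leukocytes, and Serpina3n is a secreted acute-phase protein that can also bind granzyme B. In mice, both groups have expanded into tandem copies, the Serpina3 genes on chromosome 12 and the Serpinb6 and Serpinb9 genes on chromosome 13.

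Serpinb9 and Serpinb6b rose with AQP1 overexpression, Serpinb9 by 2.17-fold and Serpinb6b by 2.04-fold, whereas their close relatives Serpinb9b and Serpinb6a differed by 1.07-fold and 1.00-fold and did not pass the test. Of the 4 Serpina3 copies, none had enough reads to be tested. Serpina3f, Serpina3g and Serpina3i were at or near 0 in every library, and Serpina3n had 13 counts at most.

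The start regions of the members differed in the motifs they held. For each gene, 300 bases (250 before and 50 from the start of the GENCODE M39 canonical transcript) were read from GRCm39 and searched on both strands for the core of the interferon-stimulated response element (GAAA, any 2 bases, GAAA), the STAT site (TTCNNNGAA) and the NF-κB consensus. These motifs occurred in 3.84%, 8.81% and 8.97% of 21770 protein-coding promoters. The start regions of Serpinb9 (chr13:33188274-33188573, forward strand), Serpinb9b (chr13:33211149-33211448, forward strand), Serpinb6b (chr13:33148934-33149233, forward strand) and Serpina3g (chr12:104202136-104202435, forward strand) are shown, with motif matches in capitals. Serpina3g had too few counts for a contrast in expression, and the region of Serpinb6a is not shown.
Serpinb9: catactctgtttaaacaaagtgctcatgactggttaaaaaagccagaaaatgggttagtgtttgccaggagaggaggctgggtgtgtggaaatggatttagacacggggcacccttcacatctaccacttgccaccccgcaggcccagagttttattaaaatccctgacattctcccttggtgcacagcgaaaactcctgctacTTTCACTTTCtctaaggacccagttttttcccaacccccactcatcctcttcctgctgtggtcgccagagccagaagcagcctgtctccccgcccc
Serpinb9b: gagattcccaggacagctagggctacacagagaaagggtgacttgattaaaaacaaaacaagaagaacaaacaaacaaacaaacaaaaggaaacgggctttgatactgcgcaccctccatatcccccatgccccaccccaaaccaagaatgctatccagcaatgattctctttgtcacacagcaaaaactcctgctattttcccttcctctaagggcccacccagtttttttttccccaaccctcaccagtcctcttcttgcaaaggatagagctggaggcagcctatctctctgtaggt
Serpinb6b: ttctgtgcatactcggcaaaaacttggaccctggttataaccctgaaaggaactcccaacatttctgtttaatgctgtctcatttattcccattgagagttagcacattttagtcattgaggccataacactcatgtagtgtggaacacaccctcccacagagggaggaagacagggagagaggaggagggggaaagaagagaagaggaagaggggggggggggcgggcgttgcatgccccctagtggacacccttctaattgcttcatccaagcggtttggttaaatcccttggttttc
Serpina3g: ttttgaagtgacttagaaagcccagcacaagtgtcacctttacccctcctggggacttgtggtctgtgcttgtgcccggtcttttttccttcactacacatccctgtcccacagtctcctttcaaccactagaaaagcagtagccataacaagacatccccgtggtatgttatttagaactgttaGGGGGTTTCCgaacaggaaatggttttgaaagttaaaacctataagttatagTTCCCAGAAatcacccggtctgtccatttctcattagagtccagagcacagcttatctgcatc
The Serpinb9 region held 1 match to the interferon-stimulated core, on the reverse strand at chr13:33188478-33188487, starting 46 bases before the transcript start. In the aligned Serpinb9b region, which shared 57.9% of alignment columns with that of Serpinb9, the same 10 bases differed by A5C and T9C. The Serpinb9 base is given first, and positions are counted from 1 at the left end of the capitals. A5C falls where the core allows any base, so only T9C breaks the match. No other member, and none of the other tested serpins of the chromosome 13 cluster, held this core in its window, and the windows of Serpinb6b and Serpinb6a held none of the 3 motifs. Only the canonical start of each gene was searched. In Serpinb6b (start 33149184, gene from 33073279) and Serpinb6a (start 34120181, reverse strand, gene to 34186812) it lies far inside the gene. In Serpinb9 (start 33188524, gene from 33187233) it also lies inside the gene, though nearer to the gene's end of annotation. The outer ends of these genes were not searched. Serpina3f, Serpina3g and Serpina3i each held a STAT site, and Serpina3g and Serpina3i an NF-κB consensus as well. Such matches describe letters in the reference and are not measured binding sites.

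The libraries held 18385714.02 to 21920898.67 expected counts each. For Aqp1, the counts ranged from 25 to 45 among oe-NC samples and reached 7713 to 8545 after overexpression (log2FC = 7.70, FDR = 1.34e-10). FDR is the Benjamini-Hochberg adjusted p of limma-voom over the 15522 genes with enough counts, log2FC is the log2 ratio of oe-AQP1 to oe-NC, and CPM is the read count relative to the TMM-scaled library size. A gene was called when its FDR was under 0.05 and its absolute log2FC above 1. By the chi-square per gene, oe-NC sample 1 stood apart from the other oe-NC samples (9.54 and 11.1, against 1.71 to 2.04 for the remaining pairs within a group), so that results are also given without it. Pax8, Krt8 and other renal epithelial markers were read in every sample, 8 of 10 with enough counts to test, while Epcam was at 0 and Slc34a1 had at most 1 count.

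Of the 4 members tested, 2 were called higher and 0 lower, against 4.39% higher, 0.844% lower and 5.23% in either direction among all genes tested. Their median log2FC was 0.57, against 0.00 over all genes.

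Serpinb9 (ENSMUSG00000045827, chromosome 13, 33187233 to 33201940, forward strand, 7 exons in its canonical transcript) had 1835, 1823 and 2053 counts in oe-NC samples 1 to 3 and 4126, 4658 and 4273 counts in oe-AQP1 samples 1 to 3. The lowest oe-AQP1 sample lay well above the highest oe-NC sample, and 23.5% of all genes tested were separated in this direction in CPM. The mean level went from 96.5 ± 3.13 to 209.44 ± 2.11 CPM (SD, n = 3 each), a log2FC of 1.12 with a 95% CI of 1.03 to 1.21 (SE 0.04, limma-voom FDR = 9.38e-09). The deposited annotation assigns Serpinb9 to protection from natural killer cell cytotoxicity. Little of its sequence is shared, with 0.388% of the 50-base windows of its transcript found in another gene, and all its expected counts were whole.

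Serpinb6b (ENSMUSG00000042842, chromosome 13, 33073279 to 33163050, forward strand), a close relative of Serpinb6a, had 1284, 1278 and 1529 counts in oe-NC samples 1 to 3 and 2784, 3084 and 2896 in oe-AQP1 samples 1 to 3. Again the groups did not overlap, as for 23.5% of all genes tested in this direction. The oe-AQP1 samples lay close together at 140.63 ± 0.333 CPM, against 69.0 ± 3.25 CPM in the controls (SD, n = 3 each). This was a log2FC of 1.03 with a 95% CI of 0.93 to 1.13 (SE 0.04, limma-voom FDR = 5.33e-08). The increase was clear but sat at the fold threshold: without oe-NC sample 1 the log2FC was 0.988 (FDR = 9.13e-15 by limma-voom), so that Serpinb6b was no longer called and 1 member remained. Of its transcript windows, 3.11% occur in another gene.

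Serpinb9b (ENSMUSG00000021403, chromosome 13, 33211399 to 33225867, forward strand) lies next to Serpinb9 and shares 85.6% of its coding sequence. It had 888, 868 and 1033 counts in oe-NC samples and 1017, 1068 and 1066 in oe-AQP1 samples, or 47.1 ± 1.65 and 50.6 ± 1.79 CPM (SD, n = 3 each). All oe-AQP1 samples lay above the oe-NC samples in CPM, by a margin as narrow as 48.6 against 48.5, and 23.5% of all genes tested were separated in this direction. Its log2FC of 0.10, with a 95% CI of -0.01 to 0.22, did not pass the test (SE 0.05, limma-voom FDR = 0.153). Exons of Gm36099 on the opposite strand overlap 10.5% of its exon bases.

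Serpinb6a (ENSMUSG00000060147, chromosome 13, 34100229 to 34186812, reverse strand) had 1593, 1578 and 1790 counts in oe-NC samples and 1665, 1804 and 1759 in oe-AQP1 samples. The groups overlapped, at 83.8 ± 2.59 and 83.9 ± 1.77 CPM (SD, n = 3 each), with a log2FC of 0.00 (95% CI -0.09 to 0.10, FDR = 0.976 by limma-voom). Exons of Nqo2, 1110046J04Rik and Ripk1 on the opposite strand overlap 10%, 8.26% and 3.17% of the Serpinb6a exon bases. Whether the counting used strand is not given in the sources used here, and 5 of its 6 expected counts were not whole, by at most 0.210 counts.

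**Figure D1:**
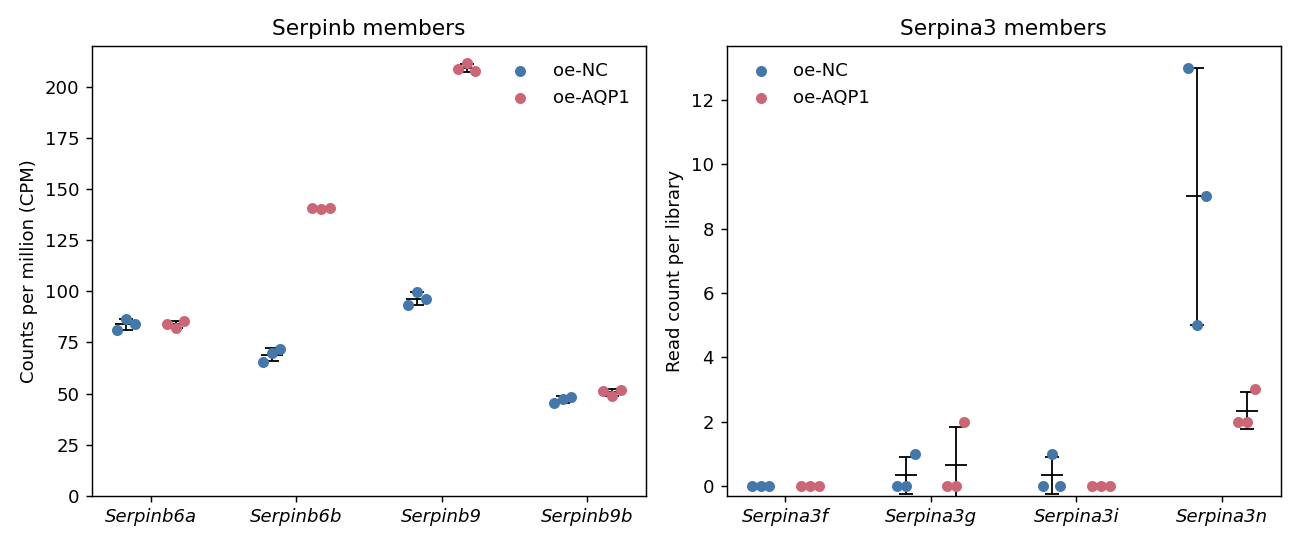
Left, CPM of the 4 Serpinb members per library, and right, read counts of the 4 Serpina3 members per library; points are samples, horizontal marks are means and whiskers are SDs (n = 3 per group). Serpinb9 and Serpinb6b lie higher in all oe-AQP1 samples, Serpinb6a overlaps, and of the Serpina3 genes only Serpina3n exceeds 2 counts.

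Related copies were also compared with each other through the ratio of one gene to another in each sample. The log2 ratio of Serpinb6b to Serpinb6a was -0.31, -0.30 and -0.23 in oe-NC samples and 0.74, 0.77 and 0.72 in oe-AQP1 samples, a difference of 1.02. The change in this ratio compares the response of both genes and not their levels, since CPM does not account for transcript length. The log2 ratio of Serpinb9b to Serpinb9 went from -1.03 ± 0.04 to -2.04 ± 0.07 (SD, n = 3), a difference of -1.01. For Serpinb9 to Serpinb6a it went from 0.20 ± 0.01 to 1.31 ± 0.04 (SD, n = 3), a difference of 1.11. None of the 3 ratios overlapped between groups, but the share of all gene pairs separated in this way was not computed. The ratios rest on the same counts as the fold changes above and restate them. Each gave p = 0.1 by an exact two-sided permutation test, also after Benjamini-Hochberg adjustment. That is the smallest p that 3 samples against 3 allow, so that this test could not reach 0.05.

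Per kilobase of canonical transcript, Serpinb6b was the highest member in oe-NC cells (29.7 to 32.6 RPKM), followed by Serpinb9 (27.5 to 29.3), Serpinb6a (25.2 to 26.8) and Serpinb9b (13.9 to 14.9), with no overlap between neighbors in this order. In oe-AQP1 cells, Serpinb6b (63.7 to 64.0) and Serpinb9 (61.1 to 62.3) stood well above Serpinb6a (25.5 to 26.6) and Serpinb9b (14.9 to 15.9). The finer order depended on the length used. With merged exons in place of the canonical transcript, the mean level of Serpinb9 in oe-AQP1 cells was 43.1 RPKM and that of Serpinb6b 42.8, and Serpinb9b exceeded Serpinb6a (14.0 against 11.0 in oe-NC cells). In oe-NC cells Serpinb9 already ranked at or above 76.8% of the protein-coding genes tested by level per canonical length.

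Serpina3n (ENSMUSG00000021091, chromosome 12, 104372810 to 104380597) had 13, 5 and 9 counts in oe-NC samples and 2, 2 and 3 counts in oe-AQP1 samples. It was lower in every oe-AQP1 sample, as were 23.8% of all genes tested, but the level was below 1 CPM throughout. Summed over the samples of a group, oe-NC had 4.06 times the oe-AQP1 level (27 against 7 counts, exact 95% interval 1.72 to 11, counting error only). The low-count filter removed it, and the comparison depended on that choice: with no filter, over 34240 genes, limma-voom gave a log2FC of -1.78 (SE 0.56, FDR = 0.0451) and edgeR's quasi-likelihood test an FDR of 0.0147.

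Serpina3g (ENSMUSG00000041481, chromosome 12, 104202386 to 104208203) had 2 counts in oe-AQP1 sample 3, 1 count in oe-NC sample 3 and 0 in the other libraries. Serpina3i (ENSMUSG00000079014, chromosome 12, 104229363 to 104238677) had 1 count in oe-NC sample 2 and 0 elsewhere, and Serpina3f (ENSMUSG00000066363, chromosome 12, 104180772 to 104187388) had 0 in all. A count of 0 allows a level of up to 0.136 to 0.164 CPM, depending on the library, so that a difference was not detectable at this depth. These copies resemble each other and other genes: 57.7% of the 50-base windows of Serpina3g occur elsewhere, 55.3% in the overlapping Gm56487, against 10.8% for Serpina3f and 16.5% for Serpina3i. Gm56487 itself averaged 0.333 counts. The interferon-linked Serpina3 copies were thus barely read in either group. In contrast, 22 of 23 interferon-induced genes tested passed the FDR threshold with a higher level in oe-AQP1 cells (16.0% of all genes tested).

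The called members lie in a stretch of chromosome 13 in which other serpin genes were called higher as well. The stretch from the start of Serpinb6b to the end of Serpinb6a spans 1113.53 kb, and with 500 kb on either side it holds 16 protein-coding serpins, of which 10 could be tested. Of these 10, 6 were called higher (4.39% of all genes tested) and 8 passed the FDR threshold alone in that direction (16.0% of all genes). The median log2FC of the 10 was 1.07. Besides Serpinb9 and Serpinb6b, the called genes were Serpinb1c (log2FC = 1.93, FDR = 5.69e-06), Serpinb9f (log2FC = 1.78, FDR = 3.66e-06), Serpinb9e (log2FC = 1.59, FDR = 2.97e-05) and Serpinb9g (log2FC = 1.16, FDR = 0.00230). Without oe-NC sample 1, 4 of the 10 were called higher: Serpinb6b and Serpinb9g (log2FC = 1.00) no longer exceeded the fold threshold, though both still passed by FDR. The 4 genes other than members were less abundant than the tested members, with oe-AQP1 means of 10.3 CPM for Serpinb1c, 9.08 for Serpinb9f, 5.61 for Serpinb9e and 4.96 for Serpinb9g. Serpinb9c and Serpinb9d were higher by FDR alone (log2FC = 0.75 and 0.67). Serpinb9b, which lies between Serpinb9 and the other Serpinb9 copies, was the only one of the 7 Serpinb9 genes tested that did not pass the FDR threshold.

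The values of the minor copies are less certain than those of Serpinb9. Serpinb9f and Serpinb9g share 98.7% of their coding sequence, and 78.7% and 54.8% of their 50-base windows occur in other genes, most often in Serpinb9h, which had 0 counts in every library. The share was 30.8% for Serpinb9d, 28.4% for Serpinb9e, 21.9% for Serpinb9c and 8.94% for Serpinb1c. The expected counts could divide reads between such copies.

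The other 8 tested protein-coding genes of this stretch did not follow. None was called (5.23% of all genes tested in either direction), and their median log2FC was -0.08. By FDR alone 2 were higher and 3 lower, against 16.0% and 16.6% of all genes. Ripk1, a kinase of TNF signaling, lies beside Serpinb6a and had a log2FC of 0.18 (FDR = 0.0377), and Wrnip1 at the other end had 0.02 (FDR = 0.772). Around the Serpina3 members on chromosome 12, 2 of 19 serpins could be tested. Of them Serpina12, which encodes vaspin, was called lower, from 715 to 805 counts among controls to 341 to 404 counts with AQP1 (log2FC = -1.11, FDR = 2.94e-07).

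**Figure D2:**
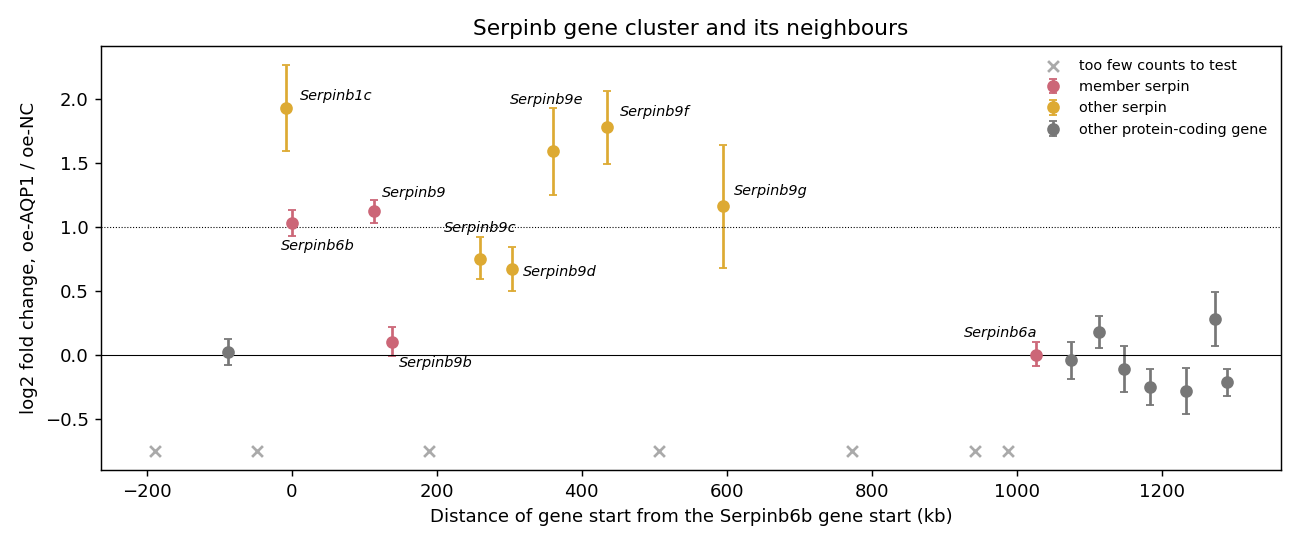
Log2 fold change (oe-AQP1 over oe-NC) of each protein-coding gene against the distance of its start from that of Serpinb6b in kb; bars are limma 95% confidence intervals, the dotted line marks a log2FC of 1, and crosses mark genes with too few counts. Of the 10 serpins tested, 6 lie above 1, while Serpinb9b, Serpinb6a and the 8 other genes lie near 0.

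The table held 62 other rows whose symbol starts with Serpin, of which 14 could be tested. Of these, 4 were called higher (4.39% of all genes tested), all of them in the chromosome 13 stretch, and 1 was called lower (0.844%), Serpina12. By FDR alone 7 were higher and 4 lower, against 16.0% and 16.6% of all genes. Outside both stretches Serping1, the C1 inhibitor of the complement system, was higher by FDR alone, with a log2FC of 0.91 (SE 0.09, FDR = 3.26e-05). Serpinf1 and Serpinh1 had a log2FC of -0.18 and -0.19, also past the FDR threshold alone.

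**Figure D3:**
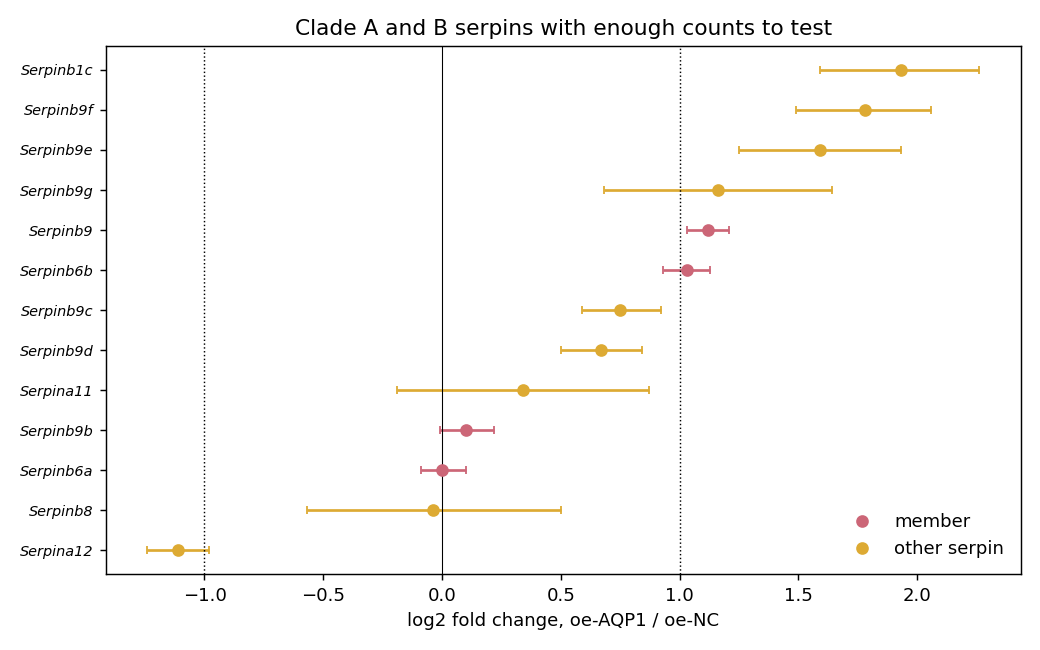
Log2 fold change (oe-AQP1 over oe-NC) with limma 95% confidence intervals for the 13 clade A and B serpin genes with enough counts to test, members in red and other serpins in yellow; dotted lines mark -1 and 1. The members Serpinb9 and Serpinb6b lie at 1.12 and 1.03, and Serpina12 lies lowest at -1.11.

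The proteases and killing proteins that these inhibitors meet were read from fixed lists. None of the 13 granzymes and granule proteins had enough counts to test. Perforin (Prf1) was at 0 in all libraries and Gzmb had at most 2 counts, and the list summed to 0.328 to 0.713 CPM in oe-NC and 0.506 to 0.637 CPM in oe-AQP1 samples. Of 22 cathepsins and other proteases, 13 were tested, with a median log2FC of -0.05. By FDR alone 5 were higher and 6 lower, against 16.0% and 16.6% of all genes tested, and 2 were called higher (4.39% of all genes). The called genes were Casp4, an inflammatory caspase (log2FC = 1.32, FDR = 1.44e-08), and Ctss, the protease cathepsin S, with 0 to 2 counts per control library and 10 to 17 per oe-AQP1 library. Ctsb, which encodes cathepsin B, had a log2FC of 0.07 (FDR = 0.0819) and did not pass.

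Of 24 interferon-induced genes, 23 were tested, of which 20 were called higher and 0 lower, with a median log2FC of 1.97. Among all genes tested, 4.39% were called higher and 0.844% lower. Mx1 (log2FC = 5.91), Cxcl10 (log2FC = 5.19), Ifit3 (log2FC = 4.85) and Rsad2 (log2FC = 4.02) were the highest, all well above Serpinb9. Among 15 acute-phase and STAT3-linked genes tested, 2 were called higher, and the median log2FC was 0.13. By FDR alone 5 were higher and 3 lower, against 16.0% and 16.6% of all genes tested. The called genes were Il6 (0 to 1 counts per control library, 41 to 43 per oe-AQP1 library) and the acute-phase gene Saa3 (2 to 9 against 28 to 32 counts). Stat3 had a log2FC of 0.00, and Lcn2 one of -0.73 (FDR = 4.74e-06).

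Immune cells also express several members. Of 16 immune cell markers, 12 had at most 3 counts in every library; Adgre1, Tyrobp and Klrb1c were at 0, and Ptprc had at most 3 counts. The whole list summed to 55.8 to 58.9 CPM in oe-NC and to 47.9 to 51.2 CPM in oe-AQP1 samples. It was carried by Cd68, Lyz2 and Csf1r, of which Csf1r fell (log2FC = -1.51, FDR = 1.31e-05). The 5 fibroblast and endothelial markers summed to 53.1 to 66.9 CPM in oe-NC and 58.2 to 60.1 CPM in oe-AQP1 samples. Within this sum, changes went both ways. Of the 4 tested, Pdgfrb was higher (log2FC = 0.34, FDR = 0.00284) and Col1a1 lower (log2FC = -0.73, FDR = 0.00238), both by FDR alone. Of the 8 renal epithelial markers tested, 5 were lower by FDR alone and 0 higher, against 16.6% and 16.0% of all genes tested. The part of these markers in the member results was not tested.

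The genes whose pattern came closest to each well-read member were found by the root mean square difference of mean-centered log2 CPM over the 6 samples, among 11808 genes with a mean of at least 50 counts. Nearest to Serpinb9 were Plscr2 (0.024), Ly6e (0.029) and Usp25 (0.029), where the median gene differed by 0.571. Their log2FC was 1.12, 1.09 and 1.13, near that of Serpinb9, so that a small difference here mainly means a similar fold change. Nearest to Serpinb6b were Ascc3 (0.021), Itm2b (0.028) and Ly6e (0.036). Serpinb9b was nearest to Ube2e3, Pde7a and Psmb3, and Serpinb6a to Ppp1r2, Zc3h14 and Tbl1x.

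**Figure D4:**
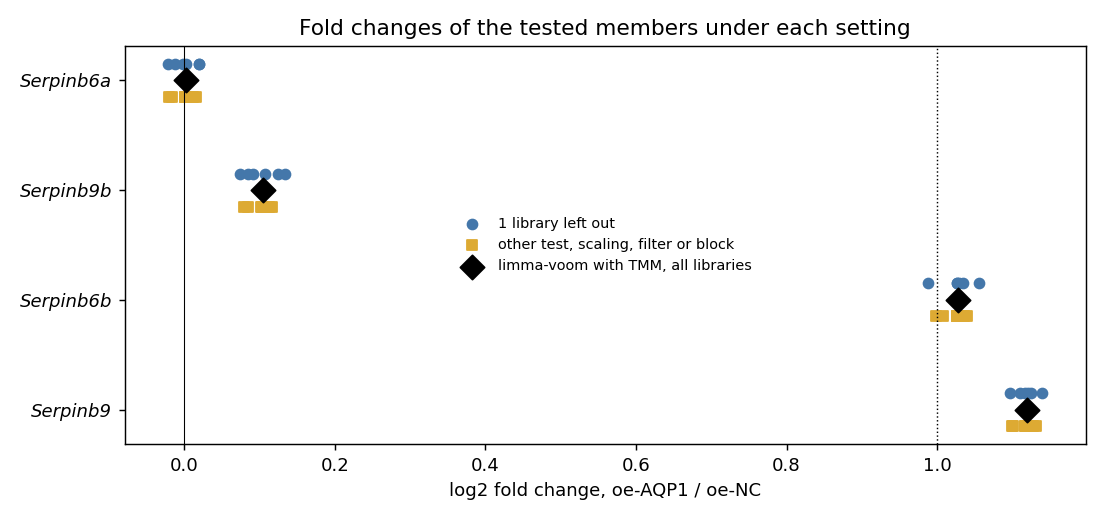
Log2 fold change (oe-AQP1 over oe-NC) of the 4 tested members by limma-voom with TMM on all libraries (black diamonds), with 1 library left out (blue circles) and under other tests, scalings, filters or the replicate block (yellow squares); the dotted line marks 1. Serpinb9 stays between 1.097 and 1.139, Serpinb6b crosses 1, and Serpinb9b and Serpinb6a stay near 0.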

How the data were processed

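RNA of 3 oe-AQP1 and 3 oe-NC samples was sequenced by the authors from Illumina TruSeq libraries. The deposited table holds expected counts per gene, which the authors did not scale between samples; 9.52% to 10.6% of values per sample were not whole. The paper names GRCm39, whereas the submitters' processing notes name fastp, HISAT2, featureCounts, Subread, GRCm38 and mm10. How the fractional values arose is not given in the sources used here. Of 78298 gene identifiers, 78168 matched GENCODE M39, from which all positions were taken (GRCm39). The 2 columns of group means were not used.

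Expected counts were rounded. Genes were kept by edgeR's filterByExpr, a step chosen here. They were compared by limma-voom with TMM normalization and the call thresholds of the paper's methods (here limma 3.58.1, edgeR 4.0.16, R 4.3.3). Interferon-stimulated genes, which the authors filtered, were kept; edgeR's quasi-likelihood test and DESeq2 1.42.0 were alternatives. On simulated counts for this comparison, limma-voom called 97.0% of 100 genes changed by 1.5 on the log2 scale, among 15238 genes. It also called 5 unchanged genes. Changes as near to the call threshold as those of Serpinb9 and Serpinb6b were not simulated. Each sample had 18385714.02 to 21920898.67 expected counts.

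The members and lists were chosen with earlier results of these data known. Named were all members, Aqp1, called serpins, up to 4 called genes of each list, called genes within 500 kb of the member clusters and the 3 nearest patterns of each member with at least 50 counts. Serpins, list genes and neighbors below the call thresholds were chosen after their values were seen. Ratios that involve Serpina3 genes were planned but not computed, since these were at few counts. Sample numbers did not pair the samples (correlation of same-numbered deviations -0.03, 0.08 and -0.08). The values of 1 other serpin are not reported here.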

Additional observations from a re-analysis of the deposited data

How the results depend on the processing

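Serpinb9 was called higher under all 16 alternatives that gave it a value, with a log2FC of 1.097 to 1.139. Serpinb6b kept its direction but missed the fold threshold with sample quality weights (log2FC = 0.999), which left 1 member called higher, and its log2FC ranged from 0.988 to 1.055 with 1 library left out (1 to 2 members called; 1 without oe-NC sample 1). Serpinb9b was not called under any alternative run (log2FC 0.074 to 0.134). The log2FC of Serpinb6a changed sign around 0, being -0.020 with sample quality weights, -0.016 without the low-count filter and -0.021 to 0.020 with 1 library left out. Without that filter 1 member, Serpina3n, was called lower. With no fold threshold, 7 other serpins were higher and 4 lower. Of the chromosome 13 serpins, 4 to 6 were called higher over the alternatives that kept the fold threshold, and 8 were higher with no fold threshold. The lowest count, 4, came without oe-NC sample 1, where Serpinb9g was also lost and 3 other serpins were called higher. The chromosome 13 count was added after the data were seen. Adding the sample number as a replicate block left 2 members called higher and 0 lower, and 666 genes higher and 120 lower in all. Over all genes, 681 were called higher and 131 lower; requiring at least 10 counts in every sample gave 416 and 66 of 14006 genes, and no low-count filter 932 and 204 of 34240. The scalings moved the median log2FC of all genes to at most 0.015. Serpina3f, Serpina3g and Serpina3i had too few counts to compare at this depth, and Serpina3n was tested only without the low-count filter. Whether shared sequence altered the values of the minor Serpinb9 copies was not tested.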
